A study of Homo sapiens with 17 samples.

Results

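MG132 was compared with its solvent DMSO in PC3M cells that carried a non-targeting siRNA (siNT). The comparison took every gene that reached 10 normalised counts in at least 2 of the 4 siNT libraries concerned, which was 9056 of the 14085 genes of the table. PC3M is an established, metastatic line of human prostate cancer cells, and the study asked how HSF1, JMJD6 and heat shock proteins act together under protein stress. Its 17 libraries were given in a pair of tables that had been normalised separately. In the first table MG132 was given to siNT cells (n = 2), to cells with an siRNA to JMJD6 (siJMJD6, n = 2) and to cells with a knockout of HSF1 (KO, n = 2, libraries A and B), and DMSO was given to siNT cells (n = 2). The dose was 2.5 µM for 4 hours, after 72 hours of transfection in the siNT and siJMJD6 cells, and the labels name no siRNA for the KO cells. The second table, used here only for levels set beside the MG132 values, held siNT cells after 1 hour at 42 °C and 2 hours of recovery (heat shock, n = 3) and siNT cells without stress (basal, n = 3), and its 3 siJMJD6 heat shock libraries were not used here. All siNT libraries share the transfection, so the MG132 and DMSO cells differ in the drug alone as far as the labels go. Neither the KO method nor whether A and B are separate clones was given in the sources used here.

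MG132 is a peptide aldehyde that blocks the cutting sites of the proteasome, the complex that degrades proteins tagged with ubiquitin. Misfolded proteins then accumulate and occupy HSP70 and HSP90, the chaperones that otherwise hold HSF1 inactive, and free HSF1 binds heat shock elements and drives chaperone genes. Cells under this stress are also known to slow translation through phosphorylated eIF2α, downstream of which the transcription factors ATF4 and CHOP are made. Such cells are also known to switch on antioxidant genes through NRF2.

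Each value is a normalised count of 3' tags, 1 tag per captured transcript. Column totals were 1641415 and 1724029 in the MG132 libraries and 1505826 and 1546577 in the DMSO libraries, and the smallest steps between values place the reads behind them at roughly 1.6 to 2.2 M. Log2 values correlated across genes at r = 0.927 between the MG132 replicates and 0.938 between the DMSO replicates. MG132 and DMSO libraries of the same number correlated at r = 0.949 for number 1, above both replicate pairs, and 0.935 for number 2, between them. The labels do not say that replicates were separate cultures, so the p-values reflect a spread between libraries that may be technical. Of 10 genes that mark prostate cells with an active androgen receptor 5 were in the table, with a summed level of 37.9 to 40.1 in the MG132 libraries and 35.7 to 49.4 in the DMSO libraries, and PC3M is known to lack that receptor's activity. Of 11 blood and immune markers 1 was in the table, at 0 to 1.04 normalised counts, while 8 of 11 epithelial and 11 of 14 mesenchymal markers reached the level for testing. No marker of identity was called by limma, and 1 of these lists' tested genes, EPCAM, had an unadjusted p under 0.05 (−0.75 ± 0.32 on the log2 scale for MG132 minus DMSO, ± SE). The values were 0.87 ± 0.47 for CDH1, −0.75 ± 0.39 for COL1A2, 0.40 ± 0.26 for LGALS1, −0.25 ± 0.43 for SLC45A3, −0.17 ± 0.57 for STEAP2 and −0.04 ± 0.59 for the neuroendocrine marker ENO2, the 1 tested of 7. At the edge of the filter, MARC2 entered with a second-highest value of 10.01, and RNF217 stayed out with 9.998. The filter admitted 95 genes through their MG132 libraries alone and 143 through their DMSO libraries alone.

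Few genes were called in the fit reported, and those called had large changes. Genes not called were not shown to be unchanged. With the replicate number as a block over the 4 siNT libraries, 160 genes were called higher and 156 lower. That fit left the fewest residual degrees of freedom of all fits run. Its p-values lean heavily on variances pooled over genes, so its counts are not on an equal footing with the others. Of the 9056 genes 20 rose, which is 0.221%, and 6 fell, which is 0.0663%, at an adjusted p under 0.05 by limma with Benjamini-Hochberg adjustment over all 9056. The smallest of these 26 log2 fold changes was 1.41 in size, while the median of all genes was 0 and the median standard error (SE) was 0.376. In all 26 genes the MG132 and DMSO libraries did not overlap, a pattern that 18.7% of all genes showed in the higher and 17.8% in the lower direction. At an unadjusted p under 0.05 there were 260 genes with higher values (2.87%) and 255 with lower values (2.82%), nearly even in the 2 directions. Without the filter on low values 6 of the 26 stayed called (HSPA1B, DNAJB1, TXNIP, TNFSF9, PPP1R15A and IER5), and without a variance trend in the fit 10 did. With 2 libraries a group an exact permutation test cannot go below p = 0.33, so all p-values come from limma, which pooled the spread over the 8 libraries of the table.

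**Figure D1:**
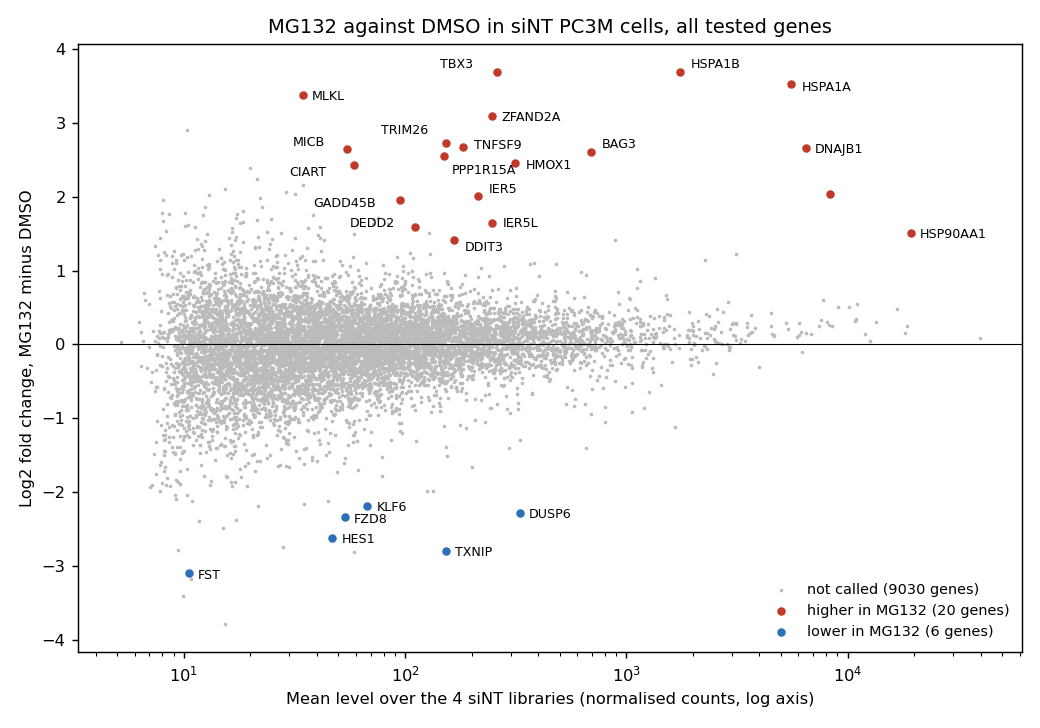
Log2 fold change of MG132 minus DMSO in siNT cells (vertical axis) against the mean normalised count over the 4 siNT libraries (log horizontal axis), 1 point per tested gene. The 20 genes that rose are in red and the 6 that fell in blue, with names for 25 of these 26. The spread of the 9030 genes not called widens toward low levels, where some of their changes are as large as those of called genes.

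**Figure D2:**
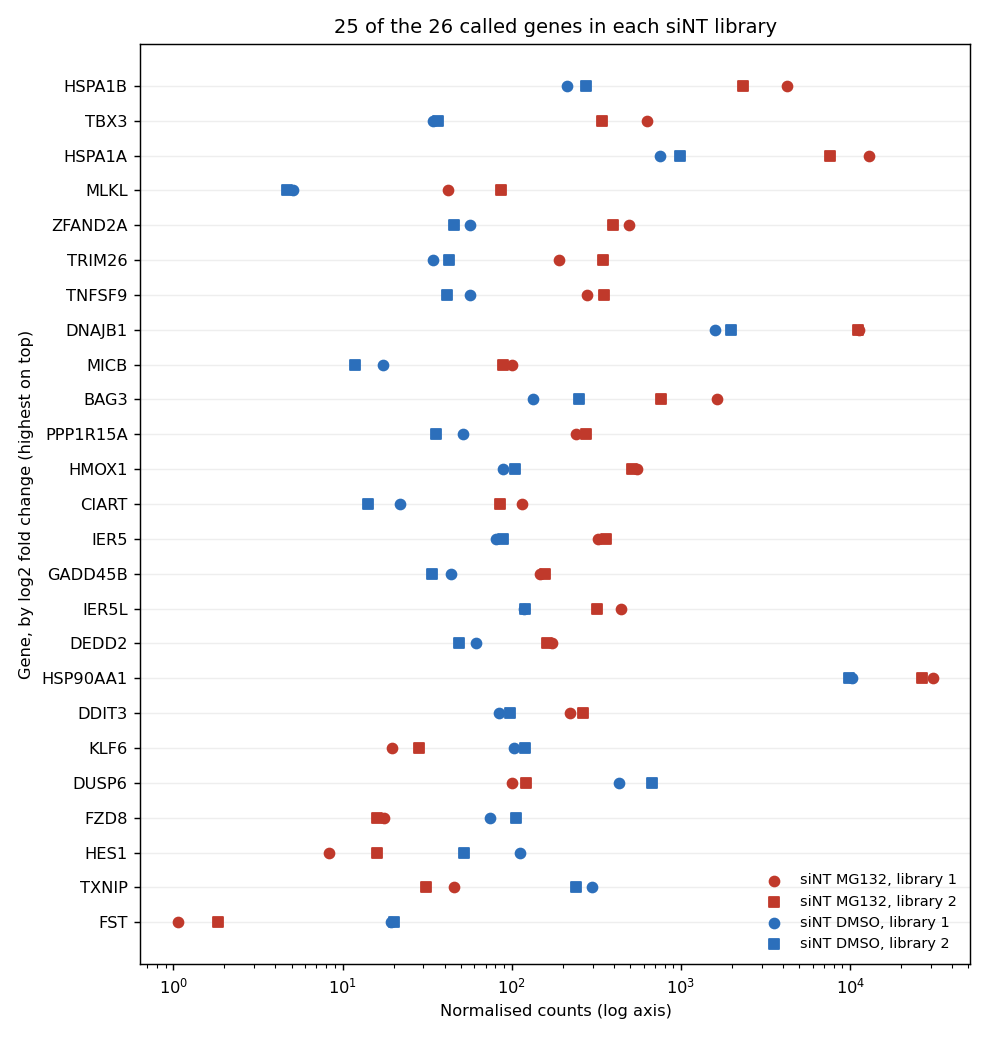
Normalised count (log axis) of 25 of the 26 called genes in each siNT library, with MG132 in red and DMSO in blue, circles for library 1 and squares for library 2. In every gene shown both MG132 libraries lie on one side of both DMSO libraries, and the gap is widest for HSPA1B, TBX3, HSPA1A, MLKL and FST.

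Genes of the HSP70 machine were among those that rose most. HSPA1B, which encodes stress-inducible HSP70, had 4229 and 2312 normalised counts in the MG132 libraries, against 211 and 275 in the DMSO libraries, a log2 fold change of 3.69 ± 0.30 (SE, adjusted p = 0.000148). Its neighbour and near-identical copy HSPA1A had 12973 and 7553 with MG132, against 746 and 980.1 with DMSO (3.53 ± 0.38, adjusted p = 0.000529). Both copies were higher in MG132 library 1 than in MG132 library 2, and both DMSO libraries lay far below. Tags shared by the copies could have been assigned to either, so their separate levels are uncertain. DNAJB1, the HSP40 partner that loads clients onto HSP70, was steady between replicates, with 11245 and 11140 under MG132 and 1580 and 1977 under DMSO (2.66 ± 0.25, adjusted p = 0.000345). BAG3, which couples HSP70 to autophagy of aggregates, had 1630 and 763 with MG132, against 133 and 249 with DMSO (2.61 ± 0.44, adjusted p = 0.0183). HSP90AA1, the inducible cytosolic HSP90, rose by less, with 30731 and 26706 under MG132 and 10212 and 9899.8 under DMSO (1.51 ± 0.22, adjusted p = 0.00705). BAG3 lost its call when MG132 library 1, DMSO library 1 or either KO library was left out of the fit (adjusted p = 0.066 to 0.327). HSP90AA1 lost its call without any 1 of the 4 siNT libraries (adjusted p = 0.0582 to 0.208), and its log2 fold change was 0.97 after quantile normalisation.

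Across the cytosolic chaperone lists few members were called, although 42 of the 50 tested had a positive log2 fold change. Of all 9056 genes 4528 had a positive one. The 4 lists together named 62 genes, of which 57 were in the table and 50 were tested, and 5 rose, 0 fell and 45 were not called by limma. Of all 9056 genes 0.221% rose, and at an unadjusted p under 0.05 2.87% had higher and 2.82% lower values. In these lists 14 had higher and 0 lower values at that threshold. The median log2 fold change of the 50 was 0.43, against 0 over all 9056 genes. Of 7 tested HSP70 and HSP110 genes 2 rose, and the median was 1.13. The HSP110 exchange factor HSPH1, chosen after its values were seen, had 1390 and 1157 normalised counts with MG132, against 358 and 635 with DMSO, a difference of 1.41 ± 0.34 that missed the threshold (adjusted p = 0.207). Of 13 HSP40 genes 1 rose, and all 13 had a positive log2 fold change, from 0.19 to 2.66. Of 17 genes for HSP90 and its co-chaperones 1 rose, with a median of 0.31, and the HSP90 co-chaperone CHORDC1 had 118 and 135 with MG132, against 32.3 and 49.8 with DMSO (1.63 ± 0.43, adjusted p = 0.284). Of 13 BAG proteins, HSP70 regulators and small heat shock proteins 1 rose, with a median of 0.41. After quantile normalisation the medians were 1.22 for the HSP70 and HSP110 list, 0.51 for HSP40, 0.15 for HSP90 and 0.35 for the BAG list. Other folding machines had 0 calls by limma. Among 14 subunits of the chaperonin TRiC and prefoldin the median was 0.13, and among 17 chaperones and proteases of mitochondria it was 0.08, with 0 genes of either list at an unadjusted p under 0.05. The TRiC subunits TCP1 and CCT6A had log2 fold changes of 0.47 ± 0.24 and 0.40 ± 0.22, and the mitochondrial HSP70 exchange factor GRPEL1 had 0.41 ± 0.22. The mitochondrial chaperonin HSPD1 had 2858 and 2352 with MG132, against 2052 and 1862 with DMSO, a log2 fold change of 0.41 ± 0.22.

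HSF1 is known to bind GAA units in alternating orientation, so promoter windows were searched for such pairs, and a few are printed to show their arrangement. Windows from 250 bases before to 50 bases after each annotated start were taken from RefSeq on build GRCh38.p14, and 23 of the 26 called genes had at least 1 window. The motif searched was GAANNTTC or TTCNNGAA, a pair of GAA units facing each other or away from each other across 2 bases. Each form is its own reverse complement, so 1 strand covers both, and overlapping matches were kept. Capitals mark the units of each match, and 20 bases are shown on either side.
HSPA1A (chr6:31815417-31815464, plus strand): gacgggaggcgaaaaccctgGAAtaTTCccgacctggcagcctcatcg
HSPA1B (chr6:31827613-31827660, plus strand): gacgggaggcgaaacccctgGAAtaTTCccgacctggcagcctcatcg
DNAJB1 (chr19:14518417-14518494, minus strand): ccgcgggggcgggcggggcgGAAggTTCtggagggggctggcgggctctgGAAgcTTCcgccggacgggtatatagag
HSP90AA1 (chr14:102087085-102087152, minus strand): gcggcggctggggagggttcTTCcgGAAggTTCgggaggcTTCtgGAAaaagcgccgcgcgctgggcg
ZFAND2A (chr7:1160340-1160387, minus strand): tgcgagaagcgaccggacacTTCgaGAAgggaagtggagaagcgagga
MICB (chr6:31497986-31498033, plus strand): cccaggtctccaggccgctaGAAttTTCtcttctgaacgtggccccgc
IER5L (chr9:129178446-129178493, minus strand): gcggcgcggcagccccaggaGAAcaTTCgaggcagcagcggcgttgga
FST (chr5:53480425-53480472, plus strand): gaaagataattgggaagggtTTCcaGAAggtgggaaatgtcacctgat
HSPA1A and HSPA1B held the match 106 and 105 bases before their starts, within nearly identical flanks. HSP90AA1 held 3 matches, 88 to 68 bases before its start, of which the first and the next share a unit, and DNAJB1 held 2 in the window shown. Of the 17 genes that rose and had a window, 9 held the motif in at least 1 window, namely HSPA1A, HSPA1B, DNAJB1, HSP90AA1, ZFAND2A, MICB, IER5, IER5L and TNFSF9. That is 52.9%, against 13.6% of 7493 tested genes with a window and 13.5% of all 35116 windows. Among the 6 genes that fell 2 held it, HES1 and FST (33.3%). A match describes letters and not a bound site, and a window without one says only that these letters are absent there.

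The genes ZFAND2A and TRIM26 rose, while none of the genes for proteasome subunits was called by limma. ZFAND2A, which adjusts the proteasome to damaged proteins, had 491 and 398 normalised counts with MG132, against 56.8 and 45.8 with DMSO (3.09 ± 0.34, adjusted p = 0.000529). The libraries of each group lay close together, with a wide gap between groups. Of 27 genes for ubiquitin and its handling 0 fell, and the median log2 fold change was 0.22. TRIM26, a RING-type ubiquitin ligase, had 189 and 346 with MG132, against 34.0 and 42.2 with DMSO (2.72 ± 0.32, adjusted p = 0.00114). None of 44 genes for proteasome subunits and assembly factors was called by limma, and their log2 fold changes ran from −0.57 to 0.66 with a median of 0.17. At an unadjusted p under 0.05 there were 4 with higher and 0 with lower values, against 2.87% and 2.82% of all genes. The base ATPase PSMC3 had 324 and 455 with MG132, against 234 and 253 with DMSO (0.66 ± 0.26, adjusted p = 0.718), and the ubiquitin receptor ADRM1 had 379 and 536, against 299.5 and 301 with DMSO (0.59 ± 0.25, adjusted p = 0.835). Of 25 genes of autophagy and its aggregate receptors 0 were called by limma, with 2 higher and 1 lower at an unadjusted p under 0.05. The receptor SQSTM1 had 482 and 575 with MG132, against 289.9 and 264 with DMSO (0.93 ± 0.23, adjusted p = 0.243), and the lipid transfer protein gene ATG2A had 0.82 ± 0.31.

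Regulators of HSF1 were measured beside HSF1 itself. IER5, which recruits a phosphatase to HSF1, had 322 and 362 normalised counts with MG132, against 80.4 and 88.4 with DMSO (2.01 ± 0.25, adjusted p = 0.00154). Its relative IER5L had 439 and 317 with MG132, against 118 and 119 with DMSO (1.64 ± 0.27, adjusted p = 0.0154). These were the 2 calls among 17 tested genes of the HSF family and its regulators, whose median was 0.40. Of all 9056 genes 0.221% rose. At an unadjusted p under 0.05 4 of the 17 had higher values and 1 a lower value, against 2.87% and 2.82% of all genes. The lower value was that of EEF1A1 (−1.73 ± 0.75). IER5L lost its call without MG132 library 1 or either DMSO library (adjusted p = 0.123 to 0.278). HSF1 had 1687 and 1884 with MG132, against 1502 and 1223 with DMSO (0.40 ± 0.27, adjusted p = 0.943). JMJD6 had 167 and 129.8 with MG132, against 88.7 and 70.9 with DMSO, and its difference of 0.88 ± 0.32 missed the threshold (adjusted p = 0.669). Its libraries did not overlap, as in 18.7% of all genes in the higher direction. Of 22 tested JmjC oxygenases, the family of JMJD6, 0 were called by limma. At an unadjusted p under 0.05 2 had higher values, against 2.87% of all genes. They were JMJD6 relatives with demethylase activity on histones, KDM5A (310.0 and 282 with MG132, against 133 and 154 with DMSO, 1.04 ± 0.25) and KDM2A (168 and 139, against 94.6 and 88.6 with DMSO, 0.73 ± 0.26).

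PPP1R15A and DDIT3 of the integrated stress response and the antioxidant gene HMOX1 also rose. PPP1R15A, which directs a phosphatase to eIF2α and so restores translation, had 241 and 274 normalised counts with MG132, against 51.5 and 35.7 with DMSO (2.56 ± 0.28, adjusted p = 0.000567). DDIT3, which encodes the transcription factor CHOP, had 221 and 263 with MG132, against 84.0 and 97.1 with DMSO (1.41 ± 0.26, adjusted p = 0.0398). The heme-degrading enzyme gene HMOX1, an NRF2 target, had 552 and 511 with MG132, against 88.3 and 105 with DMSO (2.45 ± 0.39, adjusted p = 0.0133). Groups were well apart in all of them. Without any 1 of the 4 siNT or 2 KO libraries DDIT3 (adjusted p = 0.146 to 0.364) and HMOX1 (0.0523 to 0.213) lost their calls. Of 36 ATF4 and CHOP targets 2 rose and 0 fell, against 0.221% and 0.0663% of all genes. Among the 36, 33 had a positive log2 fold change and the median was 0.32. At an unadjusted p under 0.05 9 had higher values, against 2.87% of all genes. Of 27 NRF2 targets and heme or thioredoxin genes 1 rose, with a median of 0.32. GCLM, a subunit of the enzyme that starts glutathione synthesis, had 234 and 150.4 with MG132, against 67.3 and 63.2 with DMSO (1.51 ± 0.34, adjusted p = 0.162). Of 25 chaperone and degradation genes of the endoplasmic reticulum 0 were called by limma, with 2 higher at an unadjusted p under 0.05. They were its HSP70 HSPA5 (5191 and 3554 with MG132, against 2138 and 1596 with DMSO, 1.22 ± 0.27, adjusted p = 0.155) and the degradation factor HERPUD1 (588 and 463, against 245 and 238 with DMSO, 1.11 ± 0.29, adjusted p = 0.287).

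Several genes that rose act outside protein folding. TBX3, a developmental T-box repressor, had 633 and 343 normalised counts with MG132, against 34.0 and 36.4 with DMSO (3.69 ± 0.37, adjusted p = 0.000441). The circadian repressor gene CIART had 115 and 85.4 with MG132, against 21.8 and 14.1 with DMSO (2.43 ± 0.40, adjusted p = 0.0158). MICB, a stress-induced ligand of the NKG2D receptor on natural killer cells, had 101 and 89.0 with MG132, against 17.4 and 11.9 with DMSO (2.64 ± 0.34, adjusted p = 0.00253). Its paralog MICA, chosen after its values were seen, had 93.7 and 52.97 with MG132, against 42.0 and 31.5 with DMSO (0.93 ± 0.36, adjusted p = 0.71), and tags shared by the paralogs could have been assigned to either. TNFSF9, a co-stimulatory ligand of the TNF family, had 279 and 352 with MG132, against 56.8 and 41.4 with DMSO (2.67 ± 0.29, adjusted p = 0.000529). MLKL, the membrane-rupturing effector of necroptosis, had 42.1 and 86.6 with MG132, against 5.11 and 4.71 with DMSO (3.38 ± 0.54, adjusted p = 0.0146). It passed the filter through its MG132 libraries alone, so a gene at this DMSO level could be tested only if it was higher with MG132. DEDD2, a nuclear protein with a death effector domain, had 173 and 161 with MG132, against 61.2 and 48.8 with DMSO (1.59 ± 0.30, adjusted p = 0.0409). The growth arrest gene GADD45B had 146 and 156 with MG132, against 43.6 and 33.5 with DMSO (1.95 ± 0.30, adjusted p = 0.012). TBX3 was higher in MG132 library 1 than in MG132 library 2, and MLKL the other way round.

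Calls among these genes differed in how much they rested on 1 library. TBX3, TNFSF9 and TRIM26 kept their calls whichever library was left out. MICB lost its call without MG132 library 1 (adjusted p = 0.0747), and GADD45B without either MG132 library or DMSO library 2 (0.1 to 0.136). CIART (adjusted p = 0.0546 to 0.309) and MLKL (0.0622 to 0.259) lost theirs without any 1 of the 4 siNT libraries, and DEDD2 (0.117 to 0.456) without any 1 of these or of the KO libraries. Of 20 genes of the BCL2 family and death receptors 0 were called by limma, with a median of 0.03. At an unadjusted p under 0.05 1 had a higher value, against 2.87% of all genes. It was the BH3-only gene BID (119 and 121 with MG132, against 70.9 and 56.1 with DMSO, 0.92 ± 0.27). The pore-forming member BAX had 0.46 ± 0.24. None of 12 interferon response genes and none of 8 NF-κB targets and cytokines was called by limma, and 0 of either had an unadjusted p under 0.05. The interferon-signalling factors IRF1 and STAT2 had 1.11 ± 0.55 and 0.77 ± 0.39. The NF-κB regulators NFKBIZ and NFKBIE had −1.44 ± 0.83 and 0.71 ± 0.47, where NFKBIZ passed the filter through its DMSO libraries alone. By the RefSeq annotation of GRCh38.p14 TRIM26 lies on chromosome 6 from 30184455 to 30213406, and MICB on the same chromosome from 31494918 to 31511124. The neighbours HSPA1A and HSPA1B lie there from 31815543 to 31817942 and from 31827738 to 31830254, and all of these are protein-coding genes.

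The 6 genes that fell encode regulators of transcription, signalling and metabolism. In bulk RNA, fewer cells of a type and less RNA per cell cannot be told apart. TXNIP, an inhibitor of thioredoxin and of glucose uptake, had 45.4 and 31.1 normalised counts with MG132, against 297 and 239.6 with DMSO (−2.79 ± 0.30, adjusted p = 0.000529). DUSP6, a phosphatase of ERK that is itself induced by ERK signalling, had 99.95 and 122 with MG132, against 430.3 and 674 with DMSO (−2.28 ± 0.29, adjusted p = 0.00225). The zinc finger factor KLF6 had 19.6 and 28.3 with MG132, against 104 and 119 with DMSO (−2.19 ± 0.37, adjusted p = 0.0186). HES1, a repressor induced by Notch, had 8.28 and 16.0 with MG132, against 112 and 51.8 with DMSO (−2.62 ± 0.45, adjusted p = 0.0232), and of these 6 genes its DMSO libraries lay farthest apart as a ratio. The Wnt receptor gene FZD8 had 17.5 and 16.0 with MG132, against 74.6 and 106 with DMSO (−2.34 ± 0.38, adjusted p = 0.0156). FST, which encodes the activin antagonist follistatin, had 1.07 and 1.82 with MG132, against 19.3 and 20.2 with DMSO (−3.10 ± 0.56, adjusted p = 0.0346). The MG132 values of FST correspond to very few reads and it passed the filter through its DMSO libraries alone, so its fold change is poorly fixed (−1.38 and not called with a pseudocount of 10). TXNIP kept its call whichever library was left out. DUSP6 lost its call without MG132 library 1 (adjusted p = 0.0622) or DMSO library 2 (0.0523), and FZD8 (0.0798 to 0.304) and KLF6 (0.0582 to 0.278) without any 1 of the 4 siNT libraries. HES1 lost its call without MG132 library 1, DMSO library 1 or either KO library (0.066 to 0.39), and FST without any 1 of the siNT MG132, KO or DMSO libraries (0.0663 to 0.363).

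Early response genes stood mostly on the lower side. Of 21 tested immediate-early transcription factors 2 fell (KLF6 and HES1), 0 rose and 19 were not called by limma. Earlier results of these data were known when the list was chosen. Of all tested genes 0.0663% fell, and at an unadjusted p under 0.05 2.82% had lower and 2.87% higher values. In this list 10 had lower and 0 higher values at that threshold. Of those 10, KLF4 and KLF10 passed the filter through their DMSO libraries alone, so they could be tested only if they were lower with MG132. The median of the 21 log2 fold changes was −0.84 and 17 of 21 were negative, against a median of 0 over all genes. The 4 positive ones, all uncalled, were FOS (1.71 ± 1.07), ZFP36 (1.67 ± 0.78), KLF5 (0.61 ± 0.57) and ZFP36L1 (0.40 ± 0.33). MYC, which drives growth, had 45.4 and 53.9 normalised counts with MG132, against 164 and 240.3 with DMSO, and its difference of −1.98 ± 0.52 was not called (adjusted p = 0.28). Its libraries did not overlap, as in 17.8% of all genes in the lower direction. Of 16 genes that feed back on ERK signalling 1 fell (DUSP6), with a median of −0.51, and 5 had lower and 2 higher values at an unadjusted p under 0.05. SPRY2 among the lower passed the filter through its DMSO libraries alone, and SPRED3 among the higher through its MG132 libraries alone. Among the ERK feedback genes PHLDA1, chosen after its values were seen, came nearest to a call, with 396 and 321 with MG132, against 1125 and 797 with DMSO (−1.41 ± 0.27, adjusted p = 0.0569). SPRED3, from a family of inhibitors of ERK signalling and also chosen afterwards, had 29.9 and 41.7 with MG132, against 9.49 and 4.68 with DMSO (2.23 ± 0.48, adjusted p = 0.125). Of 10 arrestin-type and glucose uptake genes 1 fell (TXNIP), with a median of −0.19. In the list of growth arrest genes, p53 targets and inhibitors of cyclin-dependent kinases 1 of 18 rose (GADD45B), and 13 of 18 log2 fold changes were negative, with a median of −0.19.

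Genes of growth and housekeeping had 0 calls by limma, and counts of higher and lower values below are those at an unadjusted p under 0.05. At that threshold 2.87% of all genes were higher and 2.82% lower. Of 28 mitotic genes 22 had a negative log2 fold change, the median was −0.22 and 1 was lower, the centromere histone gene CENPA (29.9 and 11.3 normalised counts with MG132, against 42.2 and 59.8 with DMSO, −1.40 ± 0.46, adjusted p = 0.571). The mitotic cyclin gene CCNA2 had −0.68 ± 0.33. Of 26 S phase genes the median was 0.16, with 1 higher, the replication licensing factor CDT1 (0.91 ± 0.28), and 1 lower, the maintenance methylation factor UHRF1 (−1.40 ± 0.55). UHRF1 had 6.21 and 8.47 with MG132, against 18.5 and 23.4 with DMSO, and passed the filter through its DMSO libraries alone. Of 73 ribosomal protein genes the median was 0.14 with 1 lower, but −0.11 after quantile normalisation, and of 28 splicing regulators it was 0.19 with 3 higher. The splicing factor RBM39 had 600.4 and 590.2 with MG132, against 373 and 348 with DMSO (0.72 ± 0.24, adjusted p = 0.555), and the splicing kinase CLK1 had 0.83 ± 0.31. The ribosomal protein genes RPL22 and RPS9 had −0.73 ± 0.27 and 0.43 ± 0.24. Of 21 cholesterol synthesis genes the median was 0.02 with 2 higher, but −0.02 after quantile normalisation, of 23 hypoxia and glycolysis genes 0.13 with 1 lower, and of 14 TGF-β and BMP response genes −0.06 with 2 lower. In these lists HMGCS1 of sterol synthesis had 0.64 ± 0.27, the hypoxia gene ANKRD37 −1.20 ± 0.36, the glycolytic gene PGAM1 −1.09 ± 0.57, TSC22D1 −1.30 ± 0.44 and TGIF1 −1.05 ± 0.42. The 3 tested metallothionein and zinc genes had a median of −0.21, with 0 higher and 0 lower, at −0.75 ± 0.43 for MT1X and −0.21 ± 0.45 for the metal-sensing factor MTF1.

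**Figure D3:**
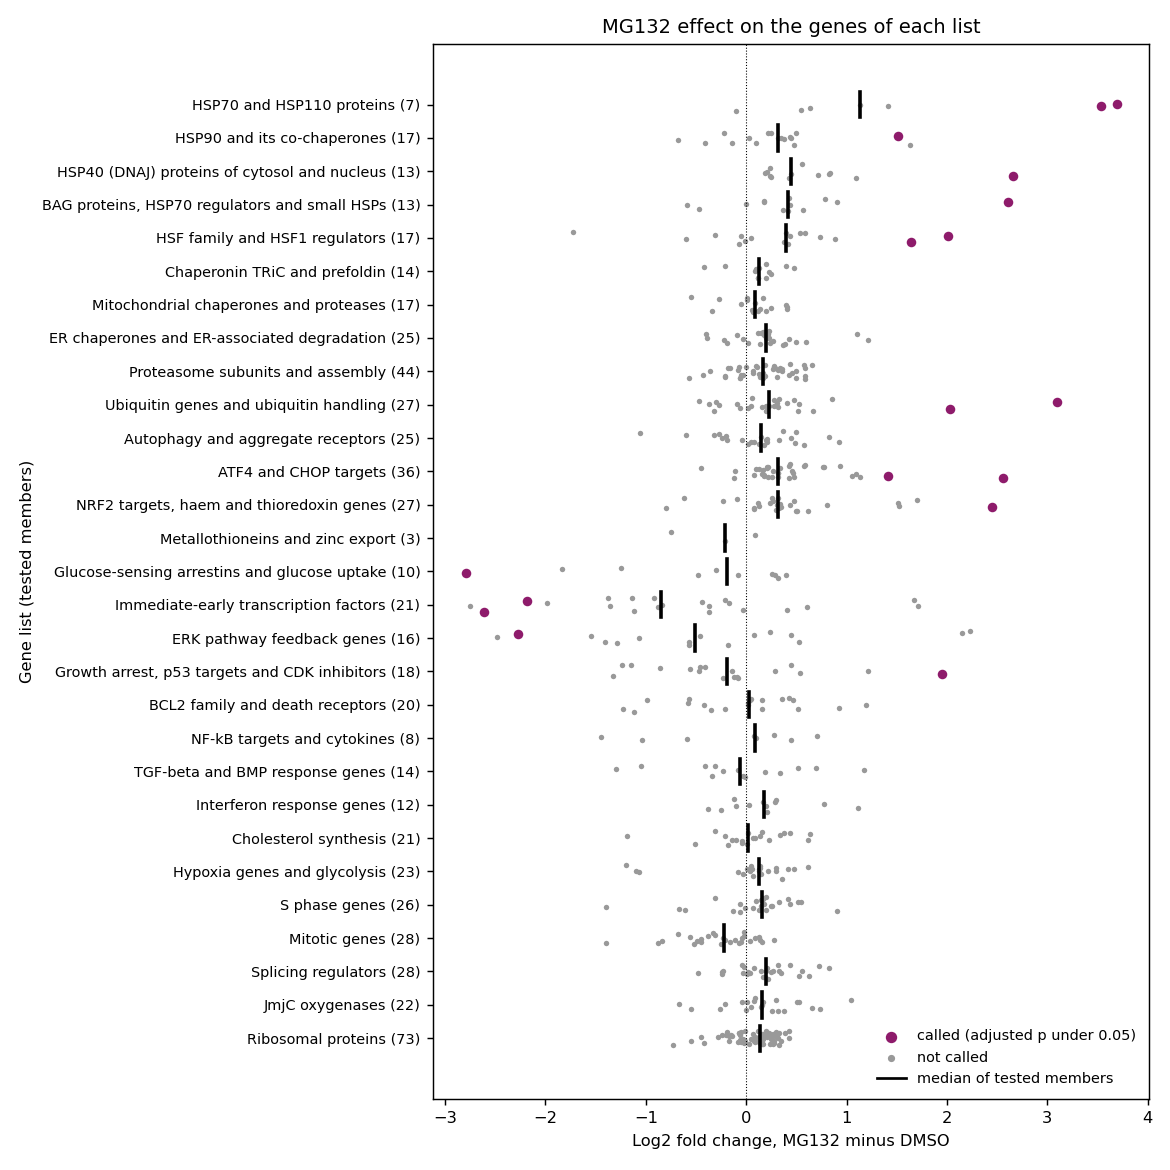
Log2 fold change of MG132 minus DMSO (horizontal axis) for the tested genes of each of 29 gene lists, 1 point per gene, with the list's median as a bar and its number of tested genes in brackets. Called genes are few in any list, the HSP70 and HSP110 median of 1.13 lies farthest to the right, and the immediate-early median of −0.84 lies farthest to the left.

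Other large differences were not called. Among genes that averaged 50 normalised counts or more and whose libraries separated by group, the highest log2 fold changes below a call were those of the potassium-chloride cotransporter gene SLC12A7 (1.71 ± 0.37), IFRD1 (1.69 ± 0.37), CHORDC1, TM2D2 (1.63 ± 0.42), the urokinase receptor gene PLAUR (1.60 ± 0.36) and GCLM. PLAUR had 495 and 418 normalised counts with MG132, against 116 and 192 with DMSO. The lowest were those of LOC728554 (−2.81 ± 1.34), MYC, the receptor tyrosine kinase gene EPHA2 (−1.98 ± 0.94), the Notch target HEY1 (−1.79 ± 0.72), PRDM8 (−1.70 ± 0.41) and IRF2BPL (−1.67 ± 0.34). LOC728554 had 35.0 and 3.71 with MG132, against 58.7 and 138 with DMSO, and HEY1 had 21.7 and 34.9, against 43.7 and 216 with DMSO, so replicates of these genes were far apart. Adjusted p of these 12 genes lay between 0.0949 (IRF2BPL) and 0.889 (LOC728554 and EPHA2).

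Heat shock, the other protein stress of the study, was set beside MG132 for the same 26 genes. The tables share no library but were normalised separately, so each difference was taken within its own table, and the difference between the stresses was not tested. Of the 20 genes that rose with MG132, 17 had every heat shock library above every basal library, a pattern found in 10.8% of 9392 genes, and 1 had every heat shock library below, found in 9.25%. Their median difference after heat shock was 1.23 on the log2 scale, against 0.000132 over all genes. TBX3 had 443, 461 and 347 normalised counts after heat shock, against 48.5, 40.3 and 47.0 at baseline. MICB had 84.1, 116 and 114 after heat shock, against 25.3, 30.4 and 29.6 at baseline, and MLKL had 58.1, 52.5 and 55.6, against 18.2, 13.5 and 20.5 at baseline. The exceptions were HMOX1 and GADD45B, whose heat shock and basal libraries overlapped, and IER5L. HMOX1 had 125, 126 and 115 after heat shock, against 128, 143 and 82.0 at baseline. IER5L was the gene on the opposite side, with 74.3, 69.4 and 67.8 after heat shock, against 114, 83.8 and 145 at baseline. Of the 6 genes that fell with MG132, 0 had every heat shock library below baseline, 4 overlapped and 2 lay above, with a median of 0.18. KLF6 had 450.4, 382 and 359 after heat shock, against 275, 281 and 205 at baseline, and TXNIP had 413, 472 and 429.7, against 375, 355 and 393 at baseline.

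**Figure D4:**
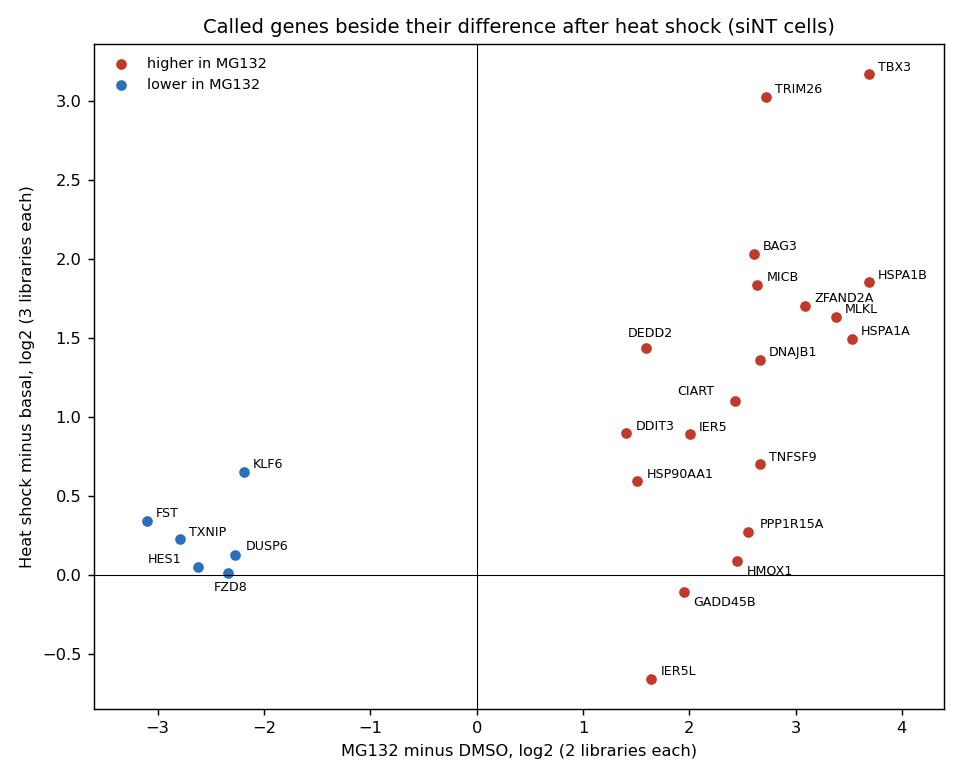
Log2 difference of heat shock minus basal (vertical axis, 3 libraries each) against that of MG132 minus DMSO (horizontal axis, 2 libraries each) for 25 of the 26 called genes in siNT cells, 1 point per gene. Genes that rose with MG132 spread from about the level of TBX3 and TRIM26 on top to GADD45B and IER5L below 0, and the 6 genes that fell with MG132 lie at or above 0 after heat shock.

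The same genes took several orders over the other MG132 libraries of the table. The siJMJD6 and KO cells have no DMSO library here, so their values are levels under MG132 and not responses. The labels give the KO cells no transfection, unlike the siNT cells. The levels are given beside the siNT values with no test. HSPA1B had 4229 and 2312 normalised counts in siNT MG132 libraries, 499 and 722 in siJMJD6 MG132 libraries and 82.0 and 97.0 in KO MG132 libraries, against 211 and 275 in siNT DMSO libraries. HSP90AA1 had 30731 and 26706 in siNT, 4040.5 and 3662 in siJMJD6 and 5819 and 4848 in KO libraries under MG132, against 10212 and 9899.8 in siNT DMSO libraries. In HSPA1B the KO libraries, and in HSP90AA1 both the siJMJD6 and the KO libraries, lay under the siNT DMSO libraries. MICB had 109 and 88.4 in siJMJD6 and 15.2 and 16.5 in KO libraries, against 17.4 and 11.9 in siNT DMSO libraries. Its siJMJD6 libraries thus spanned those of siNT under MG132 (101 and 89.0), and its KO libraries lay within the siNT DMSO range. IER5L had 610.2 and 819.8 in siJMJD6 and 84.7 and 103 in KO libraries under MG132, against 118 and 119 in siNT DMSO libraries. PPP1R15A showed another order, with 71.3 and 92.9 in siJMJD6 and 274 and 299 in KO libraries, against 51.5 and 35.7 in siNT DMSO libraries. DDIT3 had 95.8 and 129 in siJMJD6 and 479.9 and 545 in KO libraries, against 84.0 and 97.1 in siNT DMSO libraries. For both genes the KO libraries lay near or above the siNT MG132 libraries. TXNIP had 38.4 and 46.4 in siJMJD6 and 353 and 500.1 in KO libraries under MG132, against 297 and 239.6 in siNT DMSO libraries. FST had 4.33 and 3.63 in siJMJD6 and 49.1 and 64.8 in KO libraries, against 19.3 and 20.2 in siNT DMSO libraries. TXNIP and FST, which fell in siNT cells, were therefore low in siJMJD6 libraries and above the siNT DMSO libraries in KO libraries.

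**Figure D5:**
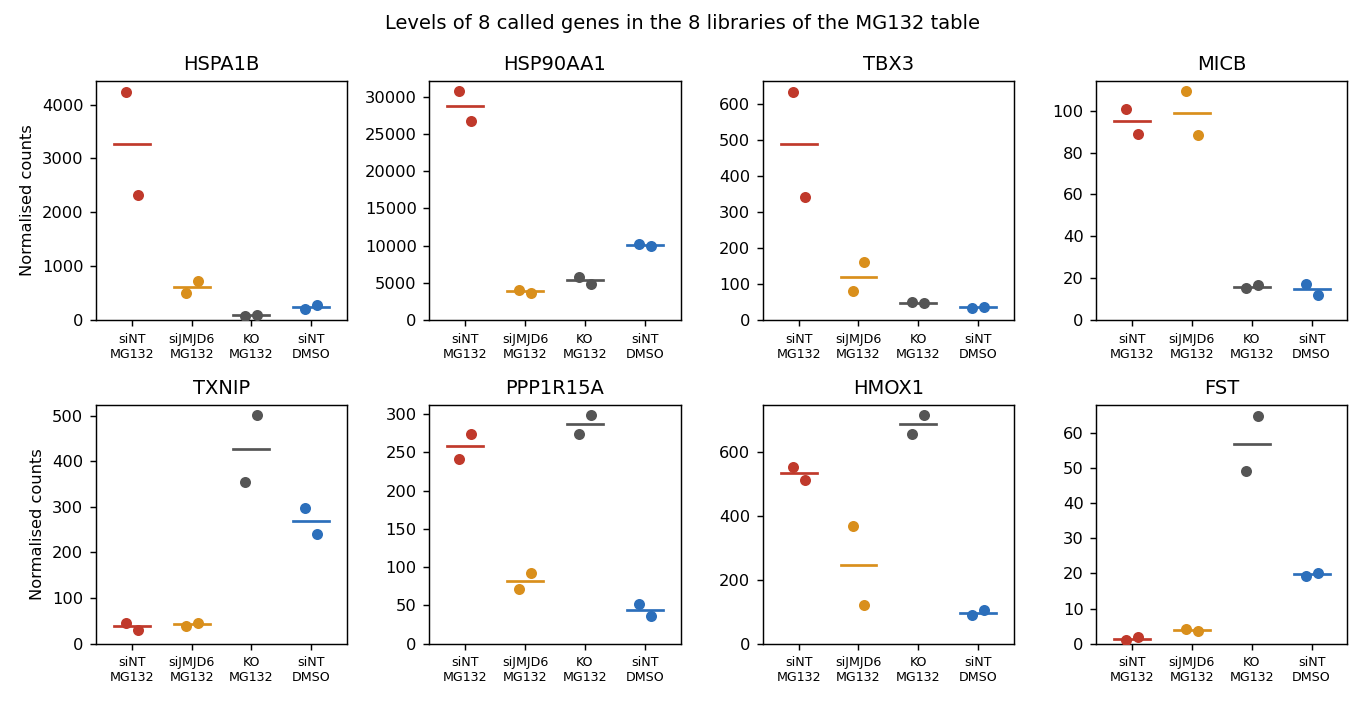
Normalised counts (linear axes from 0) of 8 called genes in the 8 libraries of the MG132 table, 1 point per library with the mean of each pair as a line, chosen after their values were seen to show different orders of the groups. HSPA1B, HSP90AA1 and TBX3 are highest in siNT MG132 libraries, PPP1R15A and HMOX1 stay high in KO libraries, and TXNIP and FST are highest there.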

How the data were processed

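Libraries of PC3M total RNA were made with the QuantSeq FWD kit, per the labels' protocols. The signal values are the authors' normalised counts, deposited as 1 table per experiment. Per the submitters' processing notes, the tools were FastQC 0.11.2, STAR 2.6.0 and HTSeq on build hg38. The sources used here do not give the annotation, strand setting, gene filter or scaling, and without the strand setting reads from overlapping antisense genes cannot be told apart. The values are not whole numbers, so no count test was run, and estimates of read depth are rough. In siNT MG132 library 1 0 genes had a value of 0, against 1639 in library 2 and 1723 and 1460 in the DMSO libraries. Small positive values appear to stand in place of 0 in that library, and their effect on low genes was not tested. All columns matched a label, with 0 unmatched.

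Log2 values of the normalised count plus a pseudocount of 1 entered a limma 3.58.1 fit (R 4.3.3) with 1 mean per group over the 8 libraries of the MG132 table and moderated variances that followed a trend with level. Replicate numbers were not used as pairs. P-values were two-sided and adjusted over all 9056 genes. Calls were made at an adjusted p under 0.05, and "rose" or "fell" is written only of called genes. Fold changes on this scale understate those of low genes. The fit was also run on simulated data with independent noise in each library. Such data hold no deviations shared by libraries of the same number, so they cannot speak to the replicate block.

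The comparison, the 29 gene lists, the marker lists and the rule for naming genes were chosen with earlier results of these data known. The rule takes HSPA1A, HSPA1B, DNAJB1, ZFAND2A, JMJD6 and HSF1, every called gene, up to 4 called members of each list or, where none was called, the 2 with the smallest p, and the 6 highest and 6 lowest uncalled genes averaging 50 or more whose libraries separated by group. Some genes that this rule takes are not reported here. Older symbols were used for 6 listed genes. Alternatives changed the pseudocount, the filter, the scaling, the libraries in the fit, the variance trend and the replicate block, and left out each library in turn.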

Additional observations from a re-analysis of the deposited data

How the results depend on the processing

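The count of genes that rose was 20, of genes that fell 6 and of chaperone genes that rose 5. They were unchanged with a pseudocount of 0.5, with the filter applied over all 8 libraries and with median-of-ratios scaling, and were 19 to 24, 4 to 7 and 5 with a pseudocount of 10, a mean of 50 or more, quantile normalisation or the 4 siNT libraries alone. Without the filter on low values they were 5, 1 and 2, and without a variance trend 8, 2 and 2. Leaving out 1 library gave 9 to 22 higher, 1 to 10 lower and 3 to 5 chaperone calls. The lowest counts of higher and lower calls came without MG132 library 1, and the 10 lower calls without siJMJD6 MG132 library 1. In every such fit 10 of the 26 genes remained called, and 5 remained called in every alternative run. The cause of these changes was not tested. Fits with a library left out hold fewer libraries, and those without siJMJD6 MG132 library 1 or 2 called 32 and 31 genes, against 26. The fit without the filter adjusts p over 14085 genes and also estimates its moderated variances from them.

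The labels do not say what libraries with the same number share, and 2 numbers are too few to test a pairing. Deviations from the group means of same-numbered libraries correlated at 0.40 between siNT MG132 and siNT DMSO, 0.35 between siJMJD6 MG132 and siNT DMSO and 0.055 between siNT MG132 and siJMJD6 MG132. With the number as a replicate block there were 29 higher, 11 lower and 7 chaperone calls over the 6 numbered libraries, and 160, 156 and 13 over the 4 siNT libraries, where 50.6% of calls were higher, against 76.9% in the fit reported. All 26 genes were among the calls from the 4 libraries, and 25 (all but FST) among those from the 6. Of the 81 named genes 30 gained a call with the block over the 4 libraries, JMJD6 among them (0.88, adjusted p = 0.0151), and 9 over the 6, where JMJD6 was not called (adjusted p = 0.42). The block over the 4 libraries leaves the fewest residual degrees of freedom of all fits. The limma adjusted p of HSPA1A was 6.7e-29 there, against 7.44e-05 over the 6, so gained calls over the 4 libraries carry little weight.

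Of 1519 values of 81 named genes under alternatives 8 changed sign, all uncalled. ENO2 was at 0.0245 after quantile normalisation. With libraries left out it ran from −0.39 to 0.32, MTF1 from −0.64 to 0.23, SLC45A3 from −0.60 to 0.10 and STEAP2 from −0.52 to 0.17. Depth of roughly 1.6 to 2.2 M reads per siNT library limits the low genes most, such as FST and MLKL.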

Other observations

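Some other regulators had large differences but no call in the comparison of MG132 with DMSO in siNT cells, and are given as values chosen after they were seen. MAP3K14, the kinase that starts the non-canonical NF-κB pathway, had 31.9 and 35.1 normalised counts with MG132, against 3.34 and 9.08 with DMSO (2.38 ± 0.52 on the log2 scale, SE, limma adjusted p = 0.125), and passed the filter through its MG132 libraries alone. OSGIN1, an NRF2 target, had 33.0 and 44.4 with MG132, against 10.3 and 11.9 with DMSO (1.70 ± 0.34, adjusted p = 0.0803). KLF10, a TGF-β-inducible zinc finger repressor, had 4.16 and 7.49 with MG132, against 24.4 and 76.6 with DMSO (−2.75 ± 0.59, adjusted p = 0.125), and its DMSO libraries, through which alone it passed the filter, lay far apart. DUSP2, a nuclear phosphatase of ERK, had 73.1 and 39.7 with MG132, against 6.83 and 18.5 with DMSO (2.15 ± 0.51, adjusted p = 0.207), on the other side from DUSP6. The libraries of the groups did not overlap in any of these 4 genes, and none was called. Of all 9056 genes 18.7% showed such a separation in the higher and 17.8% in the lower direction.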
